A study of Homo sapiens with 12 samples.

Results

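Expression of 8 genes that add, maintain or remove cytosine methylation was followed by RNA-seq in 12 libraries of 3 human renal cell carcinoma lines in which miR-29 activity was raised or lowered. The genes were DNMT1, DNMT3A, DNMT3B, UHRF1, TET1, TET2, TET3 and TDG, found by symbol among the 58051 genes counted. All 8 passed the filter on low counts in every comparison. The lines 786-O and A-498 received a control mimic or a miR-29 mimic, a double-stranded RNA that acts as extra miR-29. The line ACHN received a miR-29 inhibitor, which blocks the endogenous miRNA, or a control inhibitor. There was 1 library per group in 786-O, 2 per group in A-498 and 3 per group in ACHN, and the study describes them as biological replicates. Every group was reverse-transfected at 10 nM with the same lipid reagent, and RNA was taken at 48 h. Each line stands for 1 established culture, and the mimic and the inhibitor were never given to the same line, so the agent and the line cannot be told apart when A-498 is set beside ACHN.

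Cytosine methylation at CpG dinucleotides is set by de novo methyltransferases, of which DNMT3A and DNMT3B are the catalytic members. It is copied to the daughter strand after replication by DNMT1, which UHRF1 brings to hemimethylated sites. The TET1, TET2 and TET3 dioxygenases oxidise 5-methylcytosine, and TDG, a glycosylase, excises the later oxidation products so that base excision repair can restore the unmodified base. A miRNA acts mainly through its seed, bases 2 to 8, which pairs with complementary stretches in the 3′ UTR of an mRNA and lowers the amount or translation of that mRNA. The miR-29 family is known for targeting collagen and other matrix mRNAs as well as mRNAs of DNA methyltransferases and TET enzymes. None of the libraries measures methylation itself.

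The mature miRNAs of the family are shown first because every match described here derives from their shared seed, which is in capitals (RefSeq, GRCh38.p14, 5′ to 3′).
hsa-miR-29a-3p: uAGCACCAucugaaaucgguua
hsa-miR-29b-3p: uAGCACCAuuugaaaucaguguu
hsa-miR-29c-3p: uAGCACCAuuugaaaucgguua
All 3 carry the seed AGCACCA, so a single set of matches stands for the family. The labels do not name the member. The study's supplement calls the mimic used in 786-O a miR-29b mimic, and the member that the inhibitor was designed against is not given in the sources used here. The mature sequence given in the study's methods for the mimic has the same bases 2 to 8 but is not identical to any of the 3 over its length.

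Of the 8 genes, 6 held at least 1 exact match to the seed in the 3′ UTR (TGGTGCT, or TGGTGCTA where an A follows, the 8mer), searched on the sense strand in the isoform with the longest annotated UTR. Across 19246 protein-coding genes with an annotated 3′ UTR, 15.0% held such a match. TET3 held 10 matches, 3 of them 8mers, within 6000 nt of UTR, and it was the only gene of the 19246 with that many. DNMT3A had 4, TET1 had 3, TDG had 3 and DNMT3B had 1. In TET2 the isoform with the longest UTR held 1 match, whereas the MANE Select isoform, the agreed reference transcript, held 4, and 9 genes had as many as the 5 found over all its isoforms. DNMT1 and UHRF1 had no match in any coding isoform's 3′ UTR. In the coding part UHRF1 held 1 match and DNMT1 held 0, and 20.6% of the 19246 genes held at least 1 there. Scaled to length, TET3 had 1.67 and TDG 1.68 matches per kb of UTR, against 0.0958 per kb over all longest UTRs.

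The matches below were chosen to show every 8mer of the 6 genes, with 1 further match for DNMT3A and TET1, which have no 8mer. Each line gives the gene, the distance of the match from the stop codon, its position on GRCh38 and the 22 bases that end with the match or 1 base past it, on the strand of the gene, with the match in capitals.
TET3 at 3249 nt, chr2:74105425-74105432 (+): tctcacaaaataacTGGTGCTA
TET3 at 3808 nt, chr2:74105984-74105991 (+): tagtctaaataaaaTGGTGCTA
TET3 at 4472 nt, chr2:74106648-74106655 (+): ggctgctttttagtTGGTGCTA
TET2 at 596 nt, chr4:105277115-105277122 (+): gatgttctaagaaaTGGTGCTA
TET2 at 1712 nt, chr4:105278231-105278238 (+): aattcacatcatgaTGGTGCTA
TDG at 1064 nt, chr12:103988154-103988161 (+): taatgagttttccaTGGTGCTA
DNMT3B at 1202 nt, chr20:32809105-32809112 (+): tttactcttcttacTGGTGCTA
DNMT3A at 862 nt, chr2:25233411-25233417 (-): acccgacttcataaTGGTGCTt
TET1 at 283 nt, chr10:68692097-68692103 (+): agaatcactcagttTGGTGCTt
In TET3, 3 of the remaining matches lie close together, at 1070, 1084 and 1101 nt from the stop codon. In TDG the first match starts at nucleotide 4 of the UTR. Matches are a description of the sequence, and whether miR-29 binds them in these cells was not measured here.

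**Figure D1:**
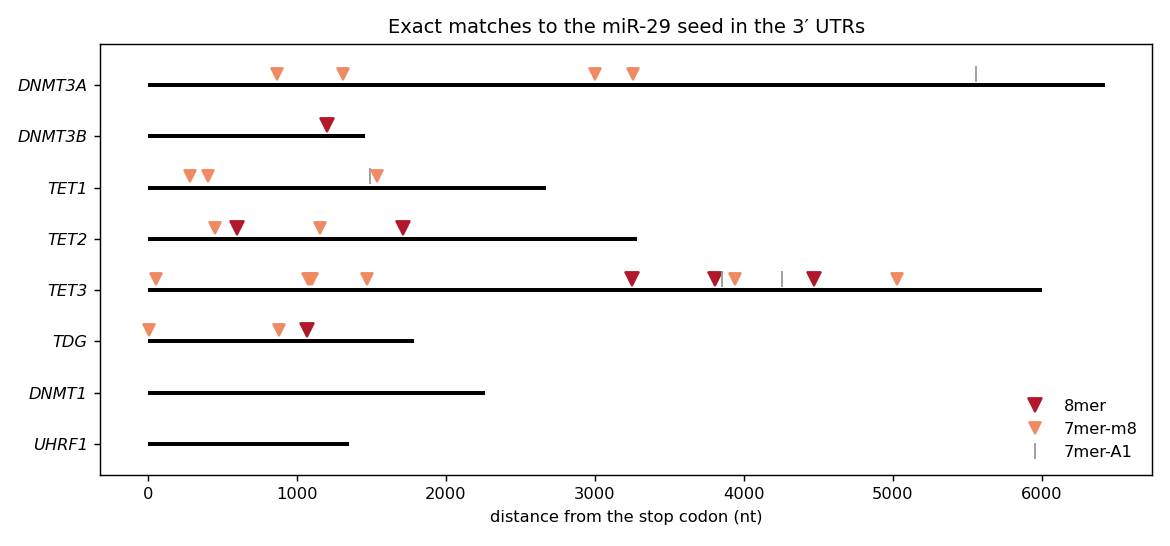
Positions of exact matches to the miR-29 seed along the 3′ UTR of each gene, with the distance from the stop codon in nucleotides on the horizontal axis, the UTR as a black line, 8mers in dark red, other matches to bases 2 to 8 in orange and the weaker 7mer-A1 matches (GGTGCTA) as grey ticks. TET2 is drawn in its MANE Select isoform and the others in the isoform with the longest UTR. TET3 carries 10 triangles, and the lines of DNMT1 and UHRF1 carry none.

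The libraries held 39919554 to 70027392 reads in genes, and 37.2% to 48.0% of reads were assigned to no single gene. That share was 45.7% and 48.0% in the 786-O libraries and at most 40.6% in the others. Levels are given as CPM, the counts of a gene relative to library size corrected by TMM factors over the 12 libraries. The labels were checked on collagen and other matrix mRNAs known as miR-29 targets. All 8 of those tested were lower with the mimic in A-498, 7 of 8 were higher with the inhibitor in ACHN, and all 7 measured in 786-O were lower with the mimic by over 1.5-fold. Of 7 renal epithelial markers, 5 were above 1 CPM in all libraries. The exceptions were CA9 and NDUFA4L2, hypoxia-inducible genes typical of clear cell tumours. All 6 markers of leukocytes and endothelium stayed below 1 CPM, with a highest value of 0.269.

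In control cells the genes were expressed at very different levels, and the lines differed most in the TET and DNMT3 genes. Levels of different genes are compared per kb of merged exons. In 786-O, TET3 stood at 9.15, TET2 at 4.79 and TET1 at 3.70 CPM per kb in its 1 control library. In A-498 the levels were 2.86 ± 0.11 for TET2, 2.17 ± 0.0307 for TET3 and 0.261 ± 0.0155 for TET1 (SD, n = 2). In ACHN they were 1.95 ± 0.0866 for TET3, 1.43 ± 0.0513 for TET2 and 0.674 ± 0.101 for TET1 (SD, n = 3). Thus TET1 was the lowest of the 3 in each line, TET2 lay above TET3 in A-498, and TET3 lay above TET2 in 786-O. The order of TET2 and TET3 in ACHN depended on the length used, since per kb of the longest transcript TET2 was at 2.32 and TET3 at 2.09. TET1 in 786-O exceeded that in A-498 by 14.6-fold (log2 difference A-498 minus 786-O -3.87, SE 0.12, edgeR adjusted p = 4.8e-23) and TET3 did so by 4.36-fold (-2.12, SE 0.0729, adjusted p = 6.42e-22). These tests take the spread of the single 786-O library from the other lines. Of the 8 genes, 7 were called between these control groups, 8 between ACHN and A-498 and 7 between ACHN and 786-O, in comparisons that called 74.7%, 75.3% and 73.6% of 21737 genes. The ACHN controls received a control inhibitor and the other controls a control mimic. Line and control agent thus cannot be told apart wherever ACHN controls are compared with another line, here and below.

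The balance of the de novo methyltransferases in ACHN was unlike that in the other lines. DNMT3B was the higher of the pair in A-498, at 11.4 ± 0.0835 CPM per kb against 2.22 ± 0.0576 for DNMT3A (SD, n = 2), and in 786-O, at 4.83 against 0.593. In ACHN the levels lay close together, at 3.08 ± 0.0627 for DNMT3A and 2.74 ± 0.0571 for DNMT3B (SD, n = 3). DNMT3A was 5.07-fold higher in ACHN than in 786-O (edgeR adjusted p = 4.6e-20), and DNMT3B was 4.12-fold lower in ACHN than in A-498 (adjusted p = 1.73e-24). UHRF1 and DNMT1 were abundant in all lines, with UHRF1 between 14.1 and 23.1 CPM per kb and DNMT1 between 9.05 and 15.0. Whether UHRF1 or DNMT1 came first depended on the length used: the merged exons of DNMT1 span 15.38 kb and its longest transcript 7.16 kb, and per kb of the longest transcript DNMT1 was the highest of the 8 genes in each line. TDG ranged from 7.72 in 786-O to 10.7 ± 0.682 in ACHN (SD, n = 3). It was higher in ACHN than in 786-O, by 1.35-fold (edgeR adjusted p = 1.08e-05), and than in A-498, by 1.2-fold (adjusted p = 0.000156). Between A-498 and 786-O it was not called (log2 difference 0.16, SE 0.0812, adjusted p = 0.0689), but it was in 2 of 6 alternatives, with 0.28 (adjusted p = 0.00333) when TMM factors were left out and 0.17 (adjusted p = 0.0484) without ACHN control 1, over a range of adjusted p from 0.00333 to 0.168. DNMT1 was not called between ACHN and 786-O (0.082, SE 0.0554, adjusted p = 0.183), but it was without TMM factors (0.17, adjusted p = 0.00551, range 0.00551 to 0.487). UHRF1 was higher in ACHN than in 786-O by 0.16 on the log2 scale (adjusted p = 0.0234), and not called without ACHN control 3 (adjusted p = 0.143, range 0.00106 to 0.143). TET3 in ACHN was 1.1-fold lower than in A-498 (adjusted p = 0.0365), a difference not called when either A-498 control library or ACHN control 1 or 3 was left out (adjusted p from 0.0506 to 0.13 in those fits, and 0.0147 to 0.13 over all alternatives).

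**Figure D2:**
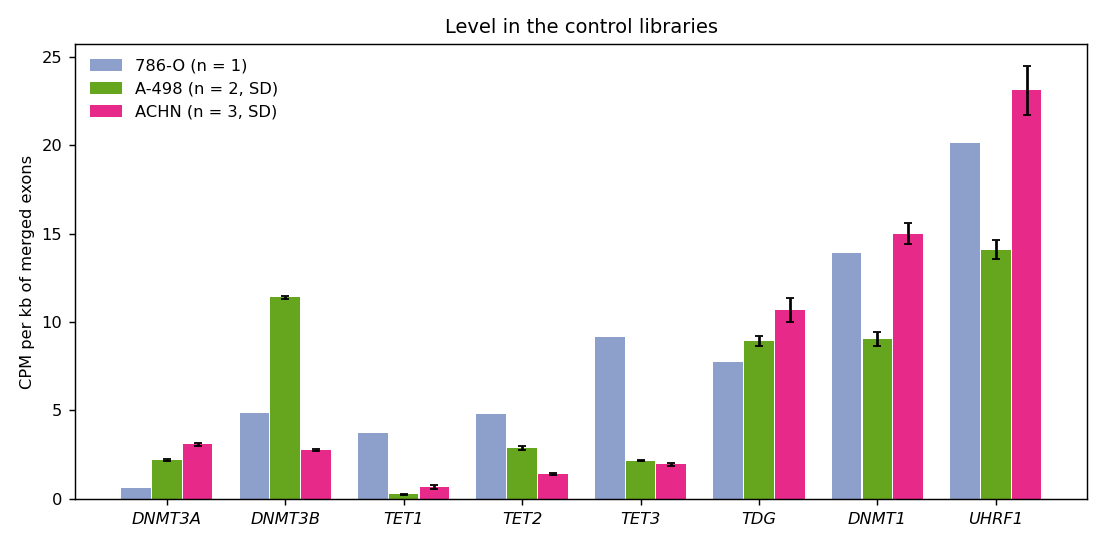
Level of each gene in the control libraries, in CPM per kb of merged exons, with 1 bar for each line (the mean of 3 libraries for ACHN and 2 for A-498, and the value of the 1 library for 786-O) and the SD as an error bar where there was more than 1 library. The TET genes are highest in 786-O, DNMT3B is highest in A-498, and DNMT1 and UHRF1 are high in every line.

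Most of these genes moved in opposite directions with the mimic and with the inhibitor. With the mimic in A-498, 6 of the 8 genes were lower (DNMT3A, DNMT3B, UHRF1, TET2, TET3 and TDG) and none was higher, at an edgeR adjusted p under 0.05. In that comparison 27.0% of 19676 genes were lower and 25.5% higher. Without TMM factors the balance of calls over all genes moved to 4352 lower and 6191 higher, from 5313 and 5015, and the same number of the 8 genes was lower. With the inhibitor in ACHN, 6 genes were higher (DNMT3A, DNMT3B, TET1, TET2, TET3 and TDG) and 2 were lower (DNMT1 and UHRF1), where 17.3% of 17904 genes were higher and 14.4% lower. In 786-O, with 1 library per group and no replicate check, 5 genes (DNMT3B, TET1, TET2, TET3 and TDG) were lower by more than 1.5-fold and none was higher, beside 19.0% and 15.7% of 20370 genes. The 6 genes with a seed match in the 3′ UTR are the 6 that were higher with the inhibitor. The calls with the mimic did not follow the matches in the same way. In A-498, UHRF1, without a match in its 3′ UTR, was lower, and TET1, with 3, was not called. In 786-O, DNMT3A, with 4, was lower by less than 1.5-fold. The share of all genes with a match that was higher in ACHN was not determined. The median log2 change of the 8 genes was -0.54 for A-498, 0.82 for ACHN and -0.94 for 786-O, and that of all genes was 0.0045, 0.0038 and -0.006.

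**Figure D3:**
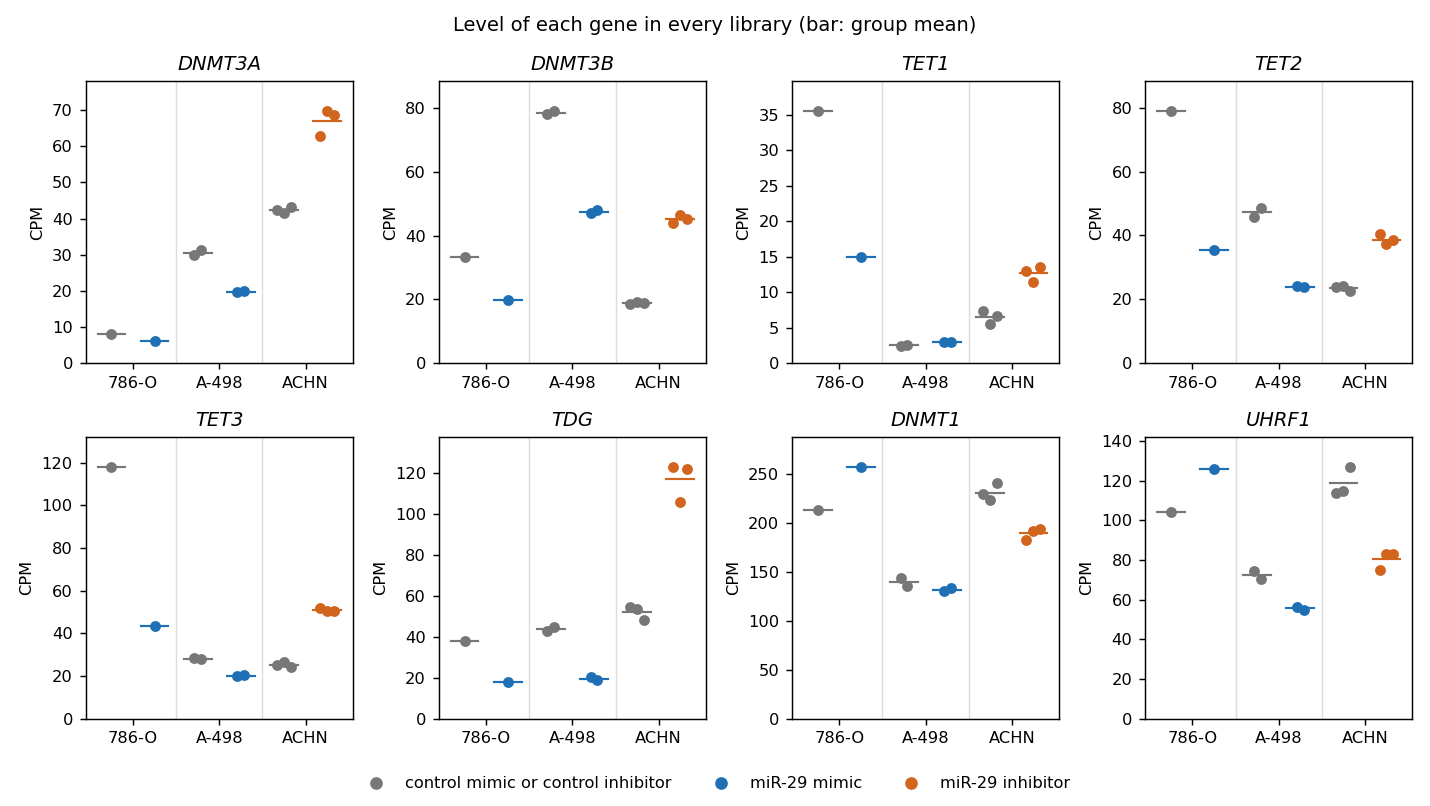
Level of each gene in every library in CPM on a linear axis from 0, with points for libraries, bars for group means, grey for controls, blue for the miR-29 mimic and orange for the miR-29 inhibitor. For TET2, TET3, TDG, DNMT3A and DNMT3B the blue points lie below the grey points of 786-O and A-498 and the orange points lie above the grey points of ACHN, whereas DNMT1 and UHRF1 are below their controls in ACHN.

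The de novo methyltransferases fell with the mimic and rose with the inhibitor. DNMT3A was at 30.0 and 31.2 CPM in the A-498 control libraries and at 19.7 and 19.9 with the mimic. In ACHN it was at 42.3, 41.6 and 43.3 CPM in controls and at 62.9, 69.7 and 68.7 with the inhibitor. The treated and control libraries did not overlap in either line. The share of all genes without such overlap was not determined, here and below. By edgeR it changed by -0.61 on the log2 scale (SE 0.0577, adjusted p = 5.94e-07) in A-498 and by 0.64 (SE 0.047, adjusted p = 8.73e-09) in ACHN. In 786-O, where DNMT3A was low, its counts were 353 in the control and 261 with the mimic, a log2 ratio of -0.44 with a 95% counting interval from -0.68 to -0.21 that covers counting error only. DNMT3B was at 78.2 and 79.0 CPM in A-498 controls and at 47.0 and 48.0 with the mimic, a log2 fold change of -0.72 (SE 0.045, adjusted p = 8.42e-09). In ACHN it rose from 18.5, 19.3 and 18.8 CPM to 43.9, 46.6 and 45.2, by 2.36-fold (log2 1.24, SE 0.0512, adjusted p = 2.93e-12). In ACHN 85 of 17904 genes, 0.475%, were raised as much or more, while in A-498 8.96% were lowered as far. The log2 ratio of DNMT3B in 786-O was -0.78 (interval -0.90 to -0.65), and 13.4% of genes there were lowered as far.

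The makeup of the DNMT3 pool in ACHN differed between the groups without overlap. The share of DNMT3A in the summed DNMT3A and DNMT3B level per kb was 53.2%, 51.8% and 53.5% in ACHN controls and 41.7%, 42.7% and 43.1% with the inhibitor. The group means were 52.9% ± 0.918 and 42.5% ± 0.705 (SD, n = 3). A two-sided exact permutation test gave p = 0.1 (adjusted p = 0.25 over 10 comparisons of composition), the smallest value that 3 libraries against 3 allow. In A-498 the share was 16.3% ± 0.254 in controls and 17.3% ± 0.113 with the mimic (SD, n = 2), where the smallest possible exact p is 0.333.

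The TET dioxygenases responded in the same directions, with TET1 in A-498 as the exception. TET2 was at 45.9 and 48.5 CPM in A-498 controls and at 24.0 and 23.8 with the mimic. It was at 23.7, 24.3 and 22.7 CPM in ACHN controls and at 40.3, 37.2 and 38.5 with the inhibitor. The groups were separate in both lines, with log2 fold changes of -0.97 (SE 0.0539, edgeR adjusted p = 2.36e-09) and 0.69 (SE 0.052, adjusted p = 1.16e-08). In 786-O it went from 78.9 to 35.3 CPM (log2 ratio -1.20, interval -1.29 to -1.11). TET2 with the mimic in 786-O was thus still above the ACHN controls in CPM.

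TET3, the gene with the most seed matches, fell further in 786-O than in A-498. Its level in 786-O was 118 CPM in the control and 43.6 with the mimic, a log2 ratio of -1.48 (interval -1.56 to -1.40). In A-498 it was at 28.4 and 27.8 CPM in controls and at 20.0 and 20.3 with the mimic, a log2 fold change of -0.47 (SE 0.0576, edgeR adjusted p = 9.16e-06). In ACHN it was at 25.2, 26.4 and 24.1 CPM in controls and at 51.7, 50.6 and 50.4 with the inhibitor, a rise of 1.99-fold (log2 0.99, SE 0.0491, adjusted p = 4.1e-11). The gene of the 8 with the largest response differed between the lines: it was TET3, with 10 matches, in 786-O, TDG, with 3, in A-498, and DNMT3B, with 1, in ACHN. The exons of TET3 share 390 bp with another counted gene on the same strand, and reads falling wholly there would be assigned to neither.

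TET1 was scarce in A-498, with 2.40 and 2.61 CPM in controls and 2.90 and 2.93 with the mimic. The log2 fold change of 0.23 (SE 0.128, edgeR adjusted p = 0.149, 95% interval -0.02 to 0.48) did not pass the threshold, although the mimic libraries were both above the controls. In 786-O, where TET1 was far higher, it went from 35.5 to 15.0 CPM (log2 ratio -1.27, interval -1.41 to -1.14). In ACHN it was at 7.36, 5.44 and 6.65 CPM in controls and at 13.0, 11.4 and 13.5 with the inhibitor, a 1.92-fold rise without overlap (log2 0.94, SE 0.0957, adjusted p = 5.42e-07).

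Per kb, the summed TET level in 786-O went from 17.6 to 7.07 CPM. In A-498 it was 5.29 ± 0.0953 in controls and 3.31 ± 0.00554 with the mimic (SD, n = 2). In ACHN the sum was 4.05 ± 0.11 in controls and 7.60 ± 0.221 with the inhibitor (SD, n = 3). Within the sum, the share of TET2 in A-498 was 54.1% ± 1.11 in controls and 43.8% ± 0.345 with the mimic (SD, n = 2). The share of TET3 there was 41.0% ± 1.32 in controls and 47.0% ± 0.291 with the mimic, and that of TET1 was 4.92% ± 0.203 and 9.17% ± 0.0541 (SD, n = 2). In ACHN the share of TET2 was 35.3% ± 0.804 in controls and 30.9% ± 0.432 with the inhibitor, without overlap (SD, n = 3, exact permutation p = 0.1, adjusted p = 0.25). The share of TET2 was thus lower in the treated libraries of A-498 and ACHN. In 786-O, with 1 library per group, it was 27.2% in the control and 30.3% with the mimic. The share of TET3 there was 51.9% and 47.6%. The ACHN share of TET3 was 48.1% ± 1.63 in controls and 51.8% ± 1.15 with the inhibitor (SD, n = 3, exact permutation p = 0.1, adjusted p = 0.25). The share of TET1 in ACHN was 16.6% ± 2.44 and 17.3% ± 1.1, a difference smaller than the spread between libraries (exact permutation p = 0.9).

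TDG, which excises the products of TET oxidation, moved by more than 2-fold in every line. It was at 42.7 and 44.6 CPM in A-498 controls and at 20.1 and 18.7 with the mimic. It was at 54.6, 53.3 and 48.3 CPM in ACHN controls and at 123, 106 and 122 with the inhibitor. In 786-O it went from 37.7 to 18.0 CPM. In A-498 and ACHN no treated library overlapped its controls, while 786-O has 1 library per group. The changes were 2.23-fold lower in A-498 (log2 -1.16, SE 0.0584, edgeR adjusted p = 9.14e-10), 2.21-fold higher in ACHN (log2 1.14, SE 0.0591, adjusted p = 6.78e-11) and 2.15-fold lower in 786-O (log2 ratio -1.11, interval -1.23 to -0.98). In A-498, 2.86% of tested genes were lowered as far, in 786-O 7.26% were, and in ACHN 0.609% were raised as far. Among those of the 8 genes called lower in A-498, this share was smallest for TDG and largest for UHRF1, at 21.9%. TDG, DNMT3A and TET1 each have an annotated pseudogene, so their levels are uncertain to the extent that reads align to both.

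The maintenance genes, which have no match in the 3′ UTR, behaved differently. DNMT1 was at 143 and 135 CPM in A-498 controls and at 130 and 133 with the mimic. By edgeR its log2 fold change came to -0.071 (SE 0.0417, adjusted p = 0.175). The call depended on 1 library, since without A-498 control 3 it was -0.13 with an adjusted p of 0.00326, and over all alternatives the adjusted p ran from 0.00326 to 0.921. Without TMM factors the value was 0.0058. In ACHN, DNMT1 was at 229, 223 and 240 CPM in controls and at 182, 191 and 194 with the inhibitor, lower in all 3 libraries (log2 -0.31, SE 0.0442, adjusted p = 2.67e-05). Its log2 ratio in 786-O was 0.23 (interval 0.19 to 0.27), on the other side of 0. The exons of DNMT1 share 83 bp with S1PR2 on the same strand.

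UHRF1 was lower under both agents in A-498 and ACHN. It was at 74.3 and 70.5 CPM in A-498 controls and at 56.5 and 55.0 with the mimic (log2 -0.36, SE 0.047, edgeR adjusted p = 1.4e-05). In ACHN it was at 114, 115 and 127 CPM in controls and at 74.9, 83.2 and 82.9 with the inhibitor, 1.5-fold lower (log2 -0.59, SE 0.0551, adjusted p = 1.91e-07). In 786-O it went from 104 to 126 CPM (log2 ratio 0.24, interval 0.18 to 0.30). Being lower in both A-498 and ACHN was seen in 2.56% of 16708 genes tested in both, whereas the opposite pair of calls, lower with the mimic and then higher under the inhibitor, was seen in 10.5%, among them DNMT3A, DNMT3B, TET2, TET3 and TDG. Of these 5, all but DNMT3A were also lower by over 1.5-fold in 786-O. All 3 changes together were seen in 853 of 15898 genes, or 5.37%. The A-498 and ACHN pair of calls alone was seen in 1752 of 16708 genes.

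**Figure D4:**
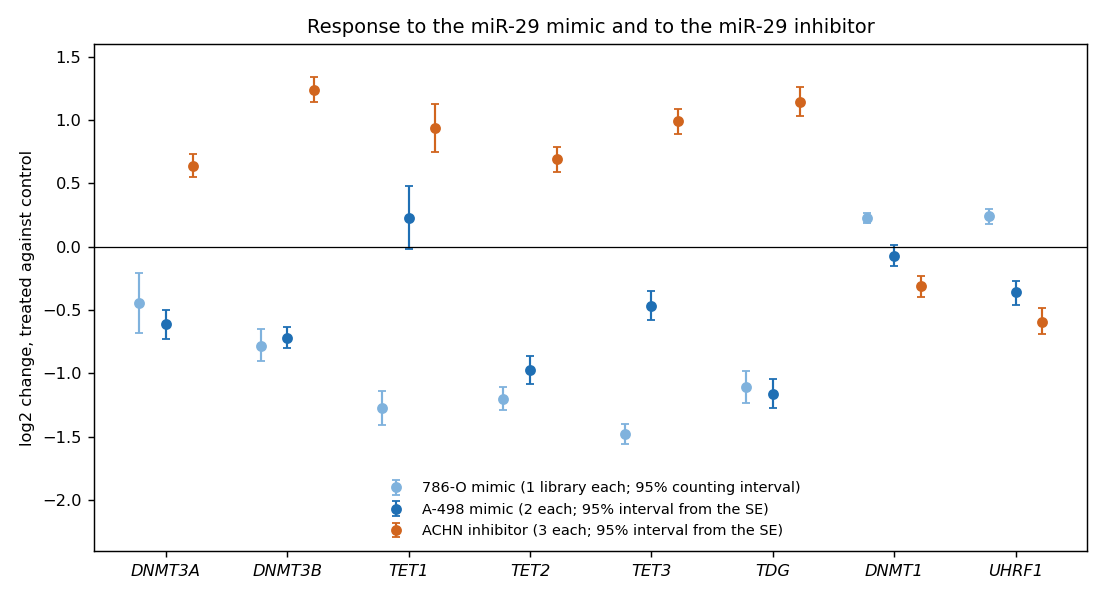
The log2 change of each gene, treated against control, for the mimic in 786-O (light blue, 1 library per group, 95% counting interval), the mimic in A-498 (blue, 2 per group, 95% interval from the SE) and the inhibitor in ACHN (orange, 3 per group, same interval). The 6 genes on the left lie above 0 with the inhibitor, from 0.64 to 1.24, and DNMT1 and UHRF1 lie below 0 there.

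Whether the mimic acted unequally in the 2 lines that received it was tested by an interaction term in edgeR. The spread came from the A-498 libraries, since no 786-O group has a second library. Of the 8 genes, TET1 and TET3 had a lower log2 change in 786-O than in A-498, and DNMT1 and UHRF1 a higher one. Over all 22587 genes, 13.2% were lower in this sense and 16.5% higher. Without TMM factors the calls over all genes turned to 3931 lower and 2796 higher, from 2972 and 3723. The log2 difference, 786-O minus A-498, was -1.46 for TET1 (SE 0.159, adjusted p = 5.74e-07), -0.97 for TET3 (SE 0.0918, adjusted p = 9.59e-08) and 0.65 for UHRF1 (SE 0.0806, adjusted p = 3.13e-06). For DNMT1 it was 0.35 (SE 0.073, adjusted p = 0.000971), and 0.25 (adjusted p = 0.0905) without A-498 mimic 1, over a range of adjusted p from 1.5e-06 to 0.0905. DNMT3A, DNMT3B, TET2 and TDG did not differ at the threshold, with log2 differences of 0.22, -0.015, -0.18 and 0.095 and SEs of 0.143, 0.095, 0.0941 and 0.11. TET2 was called when TMM factors were left out (-0.28, adjusted p = 0.0299) and without A-498 control 3 (-0.31, adjusted p = 0.00346), over a range of adjusted p from 0.00346 to 0.331.

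Genes of S phase were mostly lower in A-498 and ACHN, as UHRF1 was in both and DNMT1 in ACHN only, DNMT1 not being called in A-498. The list of 14 genes holds MCM2 to MCM7 of the replicative helicase, PCNA, RRM2, TYMS, E2F1 and others. In ACHN all 14 were lower with the inhibitor (median log2 -0.32), beside 14.4% of all genes tested. In A-498, 11 were lower and 1, PCNA, was higher with the mimic (median -0.43), beside 27.0% and 25.5% of all genes. In 786-O, 2 (CDC6 and GINS2) were lower and 1 (E2F1) higher by 1.5-fold, beside 19.0% and 15.7% of all genes, while 11 of the 14 log2 ratios were above 0 (median 0.15) and 51.0% of all ratios were below 0. The summed level of the list was 2080 to 2210 CPM in ACHN controls and 1670 to 1750 with the inhibitor. In A-498 it was 2030 to 2090 CPM in controls and 1610 in both mimic libraries, and in 786-O it went from 1740 to 2020. Fewer cells in S phase and less of these mRNAs per cell cannot be told apart in bulk RNA, and the part of S-phase genes in the DNMT1 and UHRF1 values was not tested. Over the 12 libraries, centred on each line's mean, the genes most like DNMT1 among 9922 were MCM3 (Pearson r = 0.982) and B4GALNT4 (r = 0.972). Those most like UHRF1 were ACTG1, a cytoplasmic actin (r = 0.976), and SLBP, the histone stem-loop binding protein (r = 0.973).

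Likeness of the other genes was described in the same way, over libraries that share treatments, so that r includes the treatment contrast. TET2 was most like NSD1, a histone methyltransferase (r = 0.998), TDG most like IREB2, an iron regulatory protein (r = 0.995), and DNMT3A most like ATRN (r = 0.994). TET3 was most like COL5A2 and DNMT3B most like COL4A5, both collagen chains (r = 0.993 for each), and TET1 most like LGALS8 (r = 0.974). The next gene was MEAK7 for TET3 (r = 0.991) and NAGK for DNMT3B (r = 0.992). Between the 8 genes themselves, r was 0.974 for TET2 and TDG, 0.974 for DNMT3A and DNMT3B, and 0.933 for DNMT1 and UHRF1, and it was -0.91 for DNMT1 and TET1.

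Promoters of the 8 genes were searched in RefSeq (GRCh38.p14, 250 bases before to 50 after each start) for the E2F words TTTCCCGC, TTTCGCGC, TTTGCCGC and TTTGGCGC on both strands, because E2F factors drive S-phase genes. Of 35116 promoters, 3.31% held a word. The promoter of DNMT1 and 2 of the 3 of UHRF1 held 1 word each, and no promoter listed for the other 6 genes did. The words are in capitals, each within 30 bases on the strand of the gene.
DNMT1, promoter chr19:10194904-10195203 (-), word from -2: catcggtttccGCGCGAAAagccggggcgc
UHRF1, promoter chr19:4909251-4909550 (+), word from -14: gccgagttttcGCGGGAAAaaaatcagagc
UHRF1, promoter chr19:4909894-4910193 (+), word from -160: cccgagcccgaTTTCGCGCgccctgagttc
The first base of each word is counted from the transcription start. A word is a match of letters, and no binding was measured.

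Other genes of the pathway moved in both directions. They were taken as 5 lists of 42 genes in all: partners of the methyltransferases, supply of the methyl donor, cofactors and regulators of TET enzymes, base excision repair with GADD45 genes, and methyl-CpG readers. In A-498, 14 of 41 tested were lower and 13 higher (median log2 0.0077), against 27.0% and 25.5% of all genes, and without TMM factors 10 were lower and 17 higher. In ACHN, 16 of 40 were lower and 4 higher (median -0.05), against 14.4% and 17.3% of all genes. In 786-O, 3 of 40 were lower and 3 higher by 1.5-fold, against 19.0% and 15.7%.

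**Figure D5:**
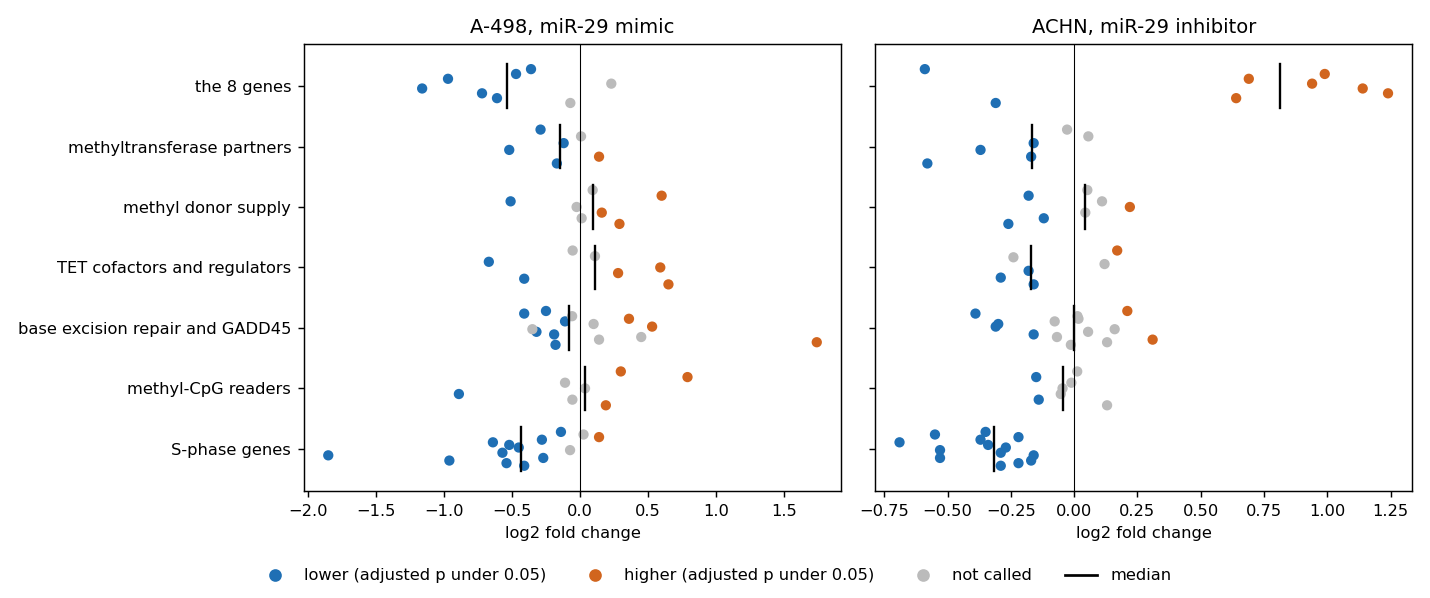
The log2 fold change of every tested gene of each list with the mimic in A-498 (left) and the inhibitor in ACHN (right), with 1 point per gene, blue for lower, orange for higher, grey for genes not called by edgeR and a black line at the median. The horizontal scales differ between the panels. The 8 genes have a median of -0.54 on the left and 0.82 on the right, the 5 pathway lists lie around 0, and the S-phase genes lie mostly below 0 in both.

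Among the methyltransferase partners, 4 of 6 tested were lower in each of A-498 and ACHN, against 27.0% and 14.4% of all genes. In 786-O none of the 6 was past 1.5-fold, and 5 of the 6 log2 ratios were above 0. HELLS, a chromatin remodeller needed for methylation of repeats, was lower in both (log2 -0.52 in A-498 and -0.37 in ACHN, edgeR adjusted p = 1.63e-06 and 7.79e-06). CDCA7, which recruits HELLS, was lower too, at -0.17 and -0.58 (adjusted p = 0.00823 and 2.76e-08). EHMT2, a histone H3 lysine 9 methyltransferase, was higher under the mimic at 0.14 and lower under the inhibitor at -0.17 (adjusted p = 0.0294 and 0.0258), although its ACHN groups overlapped.

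In methyl donor supply, AHCY, which clears S-adenosylhomocysteine, and MTRR, methionine synthase reductase, rose under the mimic in A-498 and fell under the inhibitor in ACHN, opposite to the de novo enzymes. AHCY changed by 0.29 in A-498 and -0.26 in ACHN (edgeR adjusted p = 4.83e-05 and 0.000237), and MTRR by 0.60 and -0.18 (adjusted p = 8.08e-08 and 0.00348). In 786-O the log2 ratio was 0.89 for MTRR (interval 0.83 to 0.94) but -0.12 for AHCY (interval -0.17 to -0.077).

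The isocitrate dehydrogenases, which make the 2-oxoglutarate that TET enzymes need, split in A-498. IDH1, the cytosolic enzyme, was higher with the mimic (log2 0.59, edgeR adjusted p = 7.54e-09) and IDH2, the mitochondrial enzyme, lower (-0.67, adjusted p = 6.8e-09). In ACHN IDH1 was lower with the inhibitor (-0.18, adjusted p = 0.00874) and IDH2 was at 0.12 (adjusted p = 0.067). D2HGDH, which removes the TET inhibitor 2-hydroxyglutarate, was at 0.28 in A-498 and -0.29 in ACHN (adjusted p = 0.0298 and 0.00285).

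In base excision repair, downstream of TDG, XRCC1, the scaffold of the ligation step, was lower under the mimic in A-498 and higher under the inhibitor in ACHN (log2 -0.25 and 0.21, edgeR adjusted p = 0.00461 and 0.00749). In 786-O its log2 ratio was 0.16 (interval 0.0063 to 0.32), where that of TDG was -1.11. The glycosylase NEIL2 was at 0.53 in A-498 and -0.31 in ACHN (adjusted p = 2.66e-06 and 0.00147), and at -0.074 in 786-O (interval -0.24 to 0.094). UNG, the uracil glycosylase, was lower in both, at -0.41 and -0.39 (adjusted p = 4.05e-06 and 4.24e-06). The largest change on the list was that of GADD45A, a stress-inducible gene linked to active demethylation, which rose from 25.5 to 84.3 CPM with the mimic in A-498 (log2 1.74, adjusted p = 3.86e-12). It was at 0.13 in ACHN (adjusted p = 0.193) and -0.062 in 786-O. On the list of readers, ZBTB38 was at 0.79 in A-498 and -0.15 in ACHN (edgeR adjusted p = 1.03e-09 and 0.0122). MBD3, listed there as a member of the MBD family and a subunit of the NuRD complex, was at -0.89 and -0.053 (adjusted p = 4.49e-08 and 0.593). In 786-O the log2 ratio was -0.13 for ZBTB38 (interval -0.16 to -0.10) and -0.56 for MBD3 (interval -0.65 to -0.48).

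SP1, a transcription factor that binds GC boxes, holds 2 seed matches, 1 of them an 8mer. It was at 140 and 146 CPM in A-498 controls and at 103 in both mimic libraries (log2 -0.46, SE 0.0401, edgeR adjusted p = 2.63e-07). In 786-O its log2 ratio was -0.39 (interval -0.44 to -0.33). In ACHN it was at 148, 152 and 145 CPM in controls and at 169, 164 and 162 with the inhibitor, a small shift without overlap (log2 0.13, SE 0.0438, adjusted p = 0.0293). That call was lost when any ACHN control or ACHN inhibitor 1 was left out (0.10 to 0.15, adjusted p from 0.0509 to 0.164 in those fits and from 0.00493 to 0.164 over all alternatives).

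Germline genes whose promoters are known to be silenced by methylation were nearly silent throughout. Of 14 such genes, 12 were below 1 CPM in all libraries. The exceptions were MAGEA3 and MAGEC2, cancer-testis antigen genes of the X chromosome, which were above 1 CPM only in 786-O. MAGEA3 had 531 counts in the control and 1209 with the mimic (12.3 and 28.6 CPM, log2 ratio 1.18, interval 1.03 to 1.33), and MAGEC2 had 862 and 1072 (20.0 and 25.3 CPM, log2 ratio 0.31, interval 0.18 to 0.44). MAGEA3 has near-identical relatives in its family, so its counts are uncertain, and there is 1 library per group.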

How the data were processed

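RNA was sequenced in 12 libraries. The authors prepared stranded libraries after removal of ribosomal RNA, aligned reads with HISAT2 to GRCh38 and counted them per Ensembl v87 gene with HTSeq. These raw counts were deposited without normalisation, and 3 further tables of the authors' DESeq2 comparisons (log2 fold changes, standard errors and p-values) were not used. Of 58051 genes, 56948 (98.1%) had a symbol. The lines that count reads in no single gene were left out of library sizes.

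Counts were tested in each line by the quasi-likelihood test of edgeR 4.0.16 (R 4.3.3), with TMM factors, filterByExpr, no block and Benjamini-Hochberg adjustment over all genes tested, and called at an adjusted p under 0.05. In 786-O the log2 ratio of CPM (prior count 2, at least 10 counts over both libraries, TMM within the line) was given with a 95% Clopper-Pearson counting interval, and a 1.5-fold cutoff replaced the test. CPM printed per library use TMM factors over all 12 libraries, so ratios of printed levels differ slightly from fitted changes. Reads in genes ran from 39919554 to 70027392 per library. Replicates varied beyond counting error by 3.83% in A-498 and by 5.25% in ACHN (edgeR's biological coefficient of variation). In simulated counts with 1 spread for all genes, a log2 change of 0.5 was given to 96 well-counted genes for A-498 and 100 for ACHN. Of these, edgeR found 89.6% and 89.0%, with 19535 and 17920 genes tested. The spread was set beforehand and not taken from either line, and the share of unchanged genes called is not given here. Genes with low counts or a wider spread were not covered. No library repeated another, since the chi-square of replicate pairs over its degrees of freedom ran from 3.60 to 11.0.

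Exons, UTRs and matches came from GENCODE v44 on the same build, newer than the annotation counted, and 34 of 34 listed matches were read back from the genome. Mature miRNAs and promoters came from RefSeq. The genes, lists and tests were chosen with earlier results of these data known. Named pathway genes were those called in opposite directions in A-498 and ACHN and otherwise the called gene with the largest change in each, at an average log2 CPM of 1 or more. The 1 or 2 genes most like each of the 8 were named from those whose average log2 CPM was at least 3. Alternatives covered the scaling, DESeq2 1.42.0, the filter, the threshold, the spread, the block and each library left out. The authors set aside 2 A-498 libraries for possible mislabelling, and these were not analysed here.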

Additional observations from a re-analysis of the deposited data

Results flagged for a closer look

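For 4 of the 8 genes, A-498 and 786-O responded unequally to the mimic by the interaction test of edgeR, in which the spread comes from A-498 alone and each 786-O group is 1 library. The log2 difference, 786-O minus A-498, was 0.35 for DNMT1, 0.65 for UHRF1, -1.46 for TET1 and -0.97 for TET3. For TET1 and TET3 the control level was also higher in 786-O than in A-498, by 14.6-fold and 4.36-fold, and the part of the control level in the difference was not tested.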

How the results depend on the processing

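In ACHN all 104 values of the 8 genes under the alternatives kept their direction and side of the threshold, and in A-498 78 of 80 did. In A-498, DNMT1 changed sign without TMM factors (0.0058). In the comparison of 786-O with A-498, where 43 of 48 values held, TDG changed sign without TMM factors (-0.0026) and without A-498 control 3 (-0.023, within a range of -0.023 to 0.13 when A-498 libraries were left out), and 1 to 2 of the 8 genes were called higher when A-498 libraries were left out in turn, in place of 2. The cause was not tested. Of the pathway genes, those lower in A-498 numbered 9 to 15 when libraries were left out, and those higher in ACHN, 4 as reported, numbered 8 without a filter on low counts, 7 with the spread of all 12 libraries and 2 to 6 when libraries were left out. At an adjusted p under 0.01, 10 pathway genes were lower in ACHN.

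The labels do not say whether the replicate numbers pair the ACHN libraries. Deviations of same-numbered libraries correlated at 0.137, -0.177 and -0.07, and those of differently numbered ones at -0.217 to 0.239. With 3 libraries per group these values cannot settle whether the libraries were paired. With the replicate number as a block, the 8 genes kept their calls in ACHN. No paired analysis was possible in A-498 because its groups share only number 1. Where a group was left with 1 library, that library was assumed to vary like the other groups. With 1 library per group, 786-O gives no measure of replicate spread.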
